A study of Mus musculus with 12 samples.

Results

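Adenosine is a signalling nucleoside that tissues make from ATP, and 8 mouse genes that make it, sense it or remove it were followed here through injured and uninjured hearts. They were chosen by symbol with earlier results of these data known, so counts of them set beside all genes are descriptions. They were matched to the Ensembl identifiers of 2 tables of read counts, each with 38293 genes, and all 8 had a row in both tables. Each library comes from the heart of a separate mouse. In the first table, 3 C57Bl/6J WT mice after sham surgery (WT sham) were set against 3 C57Bl/6J WT mice 14 days after ischaemia–reperfusion (WT IR), in which the left anterior descending coronary artery was tied for 1 h and then reopened. In the second, 3 wildtype littermates (Zeb2 WT IR) were set against 3 transgenic mice (Zeb2 cTg IR), all labelled C57Bl/6J and also taken 14 days after IR. Zeb2 cTg mice carry αMHC-Cre R26-lslZeb2/lslZeb2, in which Cre driven by the Myh6 promoter removes a stop cassette in front of a Zeb2 transgene in cardiomyocytes. The mice were 8 to 9 weeks old according to the methods, which give them as males in 1 place and as males and females in another, and the day on which the sham hearts were taken is not given in the labels. The sources disagree on the tissue, which is the left ventricle in the labels, infarct with border zone in the design text and the remote zone in the methods. No uninjured Zeb2 cTg hearts were analysed here, and whether the littermates carry αMHC-Cre or the unrecombined allele is not given in the sources used here.

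ATP that leaves stressed or dying cells acts on P2 receptors and is cut down to adenosine at the cell surface. The ectonucleotidase CD39, encoded by Entpd1, turns ATP and ADP into AMP, and CD73, encoded by Nt5e, turns AMP into adenosine. Adenosine then binds G protein-coupled receptors: the A1 receptor (Adora1) couples to Gi and slows the heart and its conduction, whereas both A2 receptors (Adora2a and Adora2b) couple to Gs, raise cAMP, dilate coronary vessels and dampen inflammation. The signal ends when the equilibrative transporter ENT1 (Slc29a1) takes adenosine into cells, where adenosine kinase (Adk) rebuilds AMP from it and adenosine deaminase (Ada) turns it into inosine. Hypoxia is known to raise Nt5e and Adora2b through hypoxia-inducible factors in several tissues, and ZEB2 is a zinc finger factor that binds E-box letters and often represses the genes beside them.

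Promoters were searched for the letters of these factors because the study sets hypoxia and ZEB2 side by side. Sequence is shown for the 3 genes with an E-box match and for Nt5e, the gene that passed in the Zeb2 comparison. RefSeq promoters of GRCm38.p6 reach from 250 bases before to 50 bases after a start. They matched 7 of the 8 genes, and the start nearest to the annotated 5′ end of the gene was used. The E-box CACCTG, searched on both strands, was present in 3 of the 7 promoters and in 20.2% of all 32851 promoters of this length. The core of the hypoxia response element, ACGTG or GCGTG on either strand, was present in 5 of the 7 (Entpd1, Nt5e, Adora1, Adora2b and Ada) and in 43.8% of all promoters. Capitals mark the matched letters, read 5′ to 3′ on the strand of the gene, where CAGGTG is the E-box on the other strand and GCGTG is the hypoxia core. Positions are bases relative to the start.
Entpd1, chr19:40612116-40612138, plus strand, E-box at -245: agcagCAGGTGcagctgcagggt
Slc29a1, chr17:45599705-45599734, minus strand, E-box at -104: gacctgtgtggaCAGGTGgattaaaagcag
Ada, chr2:163750364-163750429, minus strand, E-boxes at -178 and -142: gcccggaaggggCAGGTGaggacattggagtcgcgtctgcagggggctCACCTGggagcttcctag
Nt5e, chr9:88327459-88327487, plus strand, hypoxia core at -138: tccctgcgggctGCGTGtgctgggccaga
The stretch of Nt5e lies before the RefSeq start but after the GENCODE start of the gene, at chr9:88327197. No E-box of these letters was found in the windows of Nt5e, Adora1, Adora2b or Adk. These matches describe letters in a window and were not tested for binding.

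Between 20215781 and 36816818 reads per library fell on genes, of which between 60.6% and 73.5% came from the mitochondrial genome. Values are counts per 1000000 counts of a library (CPM) after scaling the libraries of a table to each other by the trimmed mean of M-values (TMM), and 1 CPM stood for between 17.2 and 37.8 reads. Differences were tested with the quasi-likelihood test of edgeR, and p-values were adjusted by the Benjamini-Hochberg method over all genes of the comparison that had enough counts, with a threshold of 0.05. Zeb2 itself was read first as a check of the labels. It was at 54.7, 57.8 and 67.0 CPM in Zeb2 WT IR and at 55.5, 56.9 and 58.7 CPM in Zeb2 cTg IR (log2 fold change -0.07, adjusted p = 0.750), so the second group is called the libraries labelled Zeb2 cTg IR. The paper, by contrast, reports higher Zeb2 in Zeb2 cTg hearts 14 days after surgery, by qPCR for RNA and by immunofluorescence for protein. Why these counts differ from that report was not tested. After IR in WT mice Zeb2 rose, from between 49.0 and 55.9 CPM to between 59.1 and 80.8 CPM (log2 fold change 0.47, adjusted p = 0.0219), a call that was lost without WT sham replicate 1 (0.0850), WT sham replicate 2 (0.112) or WT IR replicate 2 (0.0951).

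Other cells moved with both comparisons. In WT IR, 9 of 10 fibroblast markers and 9 of 10 macrophage markers rose and 5 of 22 cardiomyocyte markers fell. Of 10 endothelial markers 1 fell, and of 8 markers of smooth muscle cells and pericytes 2 rose and 2 fell. Among all genes tested, 11.0% were called higher and 9.74% lower. Summed fibroblast markers lay between 520 and 926 CPM in WT sham and reached 1867, 3012 and 4642 CPM in WT IR replicates 1, 2 and 3. Summed macrophage markers lay between 162 and 180 CPM in WT sham and reached 236, 371 and 447 CPM in the same WT IR libraries, while summed cardiomyocyte markers went from between 72532 and 79563 CPM to 72198, 61324 and 56140 CPM. WT IR replicate 1 therefore had the lowest fibroblast and macrophage sums and the highest cardiomyocyte sum of its group. In the libraries labelled Zeb2 cTg IR, 3 of 10 fibroblast markers fell (sums of 918 to 2029 CPM in Zeb2 WT IR against 539 to 658 CPM), 2 of 22 cardiomyocyte markers rose (70497 to 75860 CPM against 79330 to 84395 CPM), and the sums of macrophage markers overlapped (180 to 250 CPM against 184 to 212 CPM). Ttn alone was the largest part of each cardiomyocyte sum. It was at 39047 to 45530 CPM against 43203 to 50654 CPM, which overlapped (adjusted p = 0.642). Of the 22 cardiomyocyte markers, 18 had a positive and 4 a negative log2 fold change. In that comparison 0 of 10 endothelial markers passed, and 2.14% of all genes tested were called higher and 1.51% lower. T cell markers summed to at most 2.20 CPM, adipocyte markers to at most 0.416 CPM and neutrophil markers to at most 3.55 CPM in any library. The part of these shifts in the results below was not tested. In such bulk tissue, fewer cells of a type and less RNA per cell cannot be told apart.

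Per kilobase of exon, the group means of Adk and Slc29a1 lay above those of the surface enzymes, and these above those of the receptors, in all 4 groups, although the ranges of Nt5e and Adora2a overlapped in WT sham. Adk was highest, with a mean of 6.86 CPM per kb in WT sham, 5.82 in WT IR, 8.17 in Zeb2 WT IR and 6.68 in the libraries labelled Zeb2 cTg IR. Slc29a1 came next, with means of 5.39, 5.31, 3.24 and 4.87 CPM per kb in the same order of groups. Its range overlapped that of Adk in WT IR and that of Entpd1 in Zeb2 WT IR. Entpd1 followed at 1.72, 2.32, 2.38 and 1.97 CPM per kb, and Nt5e at 1.14, 1.19, 1.02 and 2.31 CPM per kb. Entpd1 lay above Nt5e with separate ranges in WT sham, WT IR and Zeb2 WT IR. Among the labelled Zeb2 cTg IR libraries, Nt5e had the higher mean, and the ranges of the pair overlapped. The receptors Adora1 (0.366 to 0.774 CPM per kb over the 4 group means) and Adora2a (0.345 to 1.05) lay lower, and Ada (0.144 to 0.531) and Adora2b (0.141 to 0.177) were at the bottom. Neighbours among these lowest 4 genes overlapped in most groups: Adora2a and Adora1 in 3 of 4, and Adora2b and Ada in 3 of 4, and Adora1 and Adora2a were separate in Zeb2 WT IR. The 2 tables were normalized separately, so levels in WT and Zeb2 groups were set side by side and not tested.

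**Figure D1:**
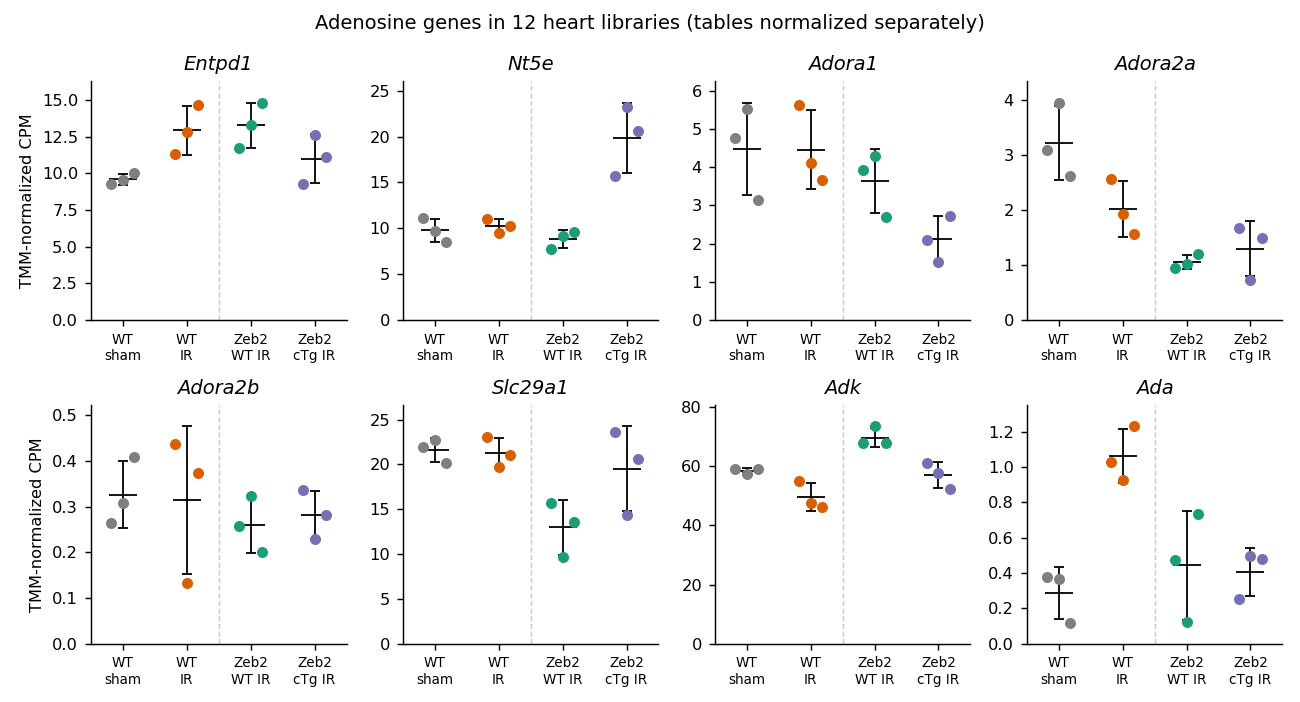
TMM-normalized CPM (vertical axes, from 0) of the 8 adenosine genes in each of the 12 libraries, with 1 panel per gene; points are libraries in the order of their replicate numbers, and bars are the mean ± SD of 3. The Nt5e points of the libraries labelled Zeb2 cTg IR (15.7 to 23.3) lie above those of every other group, and the Ada points of WT IR (0.926 to 1.23) lie above those of WT sham; the dashed line separates the 2 tables.

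The first comparison asks what IR did to these genes in WT hearts 14 days later. Of the 7 genes with enough counts, Entpd1 and Ada rose, Adora2a fell, and Nt5e, Adora1, Slc29a1 and Adk did not pass. This is 3 of 7, against 20.8% of all 13756 genes tested in this comparison, of which 11.0% were called higher and 9.74% lower. The 3 WT IR libraries lay wholly above or below the 3 WT sham libraries for 4 of the 7 genes, as for 39.8% of all genes tested. The median log2 fold change of the 7 was -0.03, against 0.01 for all genes tested. When the libraries were scaled on cardiomyocyte markers in place of TMM, 2885 genes were higher and 228 lower in WT IR, against 1519 and 1340 with TMM.

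Among the surface enzymes, Entpd1 (ENSMUSG00000048120, chr19:40612366-40741602, plus strand) was at 9.27, 9.57 and 10.01 CPM in WT sham and at 11.3, 12.9 and 14.7 CPM in WT IR. Every injured heart lay above every sham heart. The rise was 1.35-fold (log2 fold change 0.43, SE 0.11, adjusted p = 0.0226, n = 3 in each group). Entpd1 marks endothelium and is also carried by macrophages. Summed endothelial markers lay between 536 and 570 CPM in WT sham and at 543, 540 and 448 CPM in WT IR. Of these 10 markers, 0 rose and 1 fell, whereas macrophage markers rose in the same libraries. The 3 WT IR values of Entpd1 stood in the order of the macrophage sums, which is also the order of the fibroblast sums. The part of these cells in the rise of Entpd1 was not tested. When 1 library was left out at a time, the log2 fold change stayed between 0.33 and 0.51. It passed in 1 of the 6 fits, the fit without WT IR replicate 1 (adjusted p = 0.00160), and each of the other 5 libraries was needed for the call (adjusted p between 0.0533 and 0.103 without it). When the 12 libraries were fitted together, its adjusted p was 0.0637.

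Nt5e (ENSMUSG00000032420, chr9:88327197-88372092, plus strand), which catalyses the step that yields adenosine, was at 11.1, 9.75 and 8.56 CPM in WT sham and at 11.0, 9.50 and 10.3 CPM in WT IR. These groups overlapped almost completely, with a log2 fold change of 0.06 (SE 0.11, adjusted p = 0.735). The sign of this small difference turned when single libraries were left out, between -0.03 and 0.16.

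Of the receptors, Adora2a (ENSMUSG00000020178, chr10:75316877-75334784, plus strand) was at 3.10, 3.96 and 2.62 CPM in WT sham and at 2.56, 1.93 and 1.57 CPM in WT IR. The highest injured heart lay just under the lowest sham heart. The fall was to 0.619 of the sham level (log2 fold change -0.69, SE 0.22, adjusted p = 0.0484), close to the threshold. It no longer passed with scaling on cardiomyocyte markers (-0.42, adjusted p = 0.145), with a correction for the GC content of transcripts (-0.45, adjusted p = 0.150) alone or with the replicate block (-0.44, adjusted p = 0.143), or when the 12 libraries were fitted together (adjusted p = 0.110), and it passed in the other 8 of 12 alternatives. It passed in 1 of the 6 fits with 1 library left out, again the fit without WT IR replicate 1 (-0.90, adjusted p = 0.00497), and had an adjusted p between 0.0588 and 0.215 in the other 5.

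Adora1 (ENSMUSG00000042429, chr1:134199223-134235431, minus strand) was at 4.77, 5.52 and 3.14 CPM in WT sham and at 5.62, 4.10 and 3.65 CPM in WT IR. The groups overlapped, and the log2 fold change was -0.03 (SE 0.21, adjusted p = 0.927). The gene overlaps Mybph on the opposite strand, which had at most 2 counts in any library against at least 40 for Adora1. Adora2b (ENSMUSG00000018500, chr11:62248984-62266453, plus strand) had too few counts to be tested in either comparison. It lay between 0.132 and 0.437 CPM in all 12 libraries, with values of 0.265, 0.307 and 0.407 CPM in WT sham and 0.437, 0.132 and 0.373 CPM in WT IR. Whether Adora2b differed between these groups was therefore not tested.

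Among the genes that end the signal, Ada (ENSMUSG00000017697, chr2:163726584-163750239, minus strand) showed the largest fold change of the 7 tested. It had 10, 12 and 2 reads in WT sham and 33, 35 and 33 reads in WT IR, which is 0.378, 0.368 and 0.116 CPM against 1.03, 0.926 and 1.23 CPM. The groups were far apart for so low a gene, and WT sham replicate 3, which holds the 2 reads, was also the shallowest library. The rise was 3.36-fold (log2 fold change 1.75, SE 0.34, adjusted p = 0.00949). It passed in 5 of the 6 fits with 1 library left out, with an adjusted p of 0.0555 without WT sham replicate 2. Ada is expressed in lymphoid and myeloid cells, and the macrophage markers rose in these libraries. The 3 WT IR values of Ada did not stand in the order of the macrophage sums. T cell markers, too low to be tested, summed to between 0.644 and 0.870 CPM in WT sham and to 0.656, 1.72 and 2.20 CPM in WT IR replicates 1, 2 and 3. Their part in the rise of Ada was not tested.

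Adk (ENSMUSG00000039197, chr14:21052574-21448569, plus strand), the most abundant of the genes, was at 59.0, 57.4 and 59.1 CPM in WT sham and at 55.1, 47.6 and 46.2 CPM in WT IR. All injured hearts lay below all sham hearts, and WT IR replicate 1 was nearest to them. The log2 fold change of -0.24 (SE 0.08) did not pass, with an adjusted p of 0.0739. It passed with the GC correction (-0.38, adjusted p = 0.0242) and without WT IR replicate 1 (-0.32, adjusted p = 0.00420), and with scaling on cardiomyocyte markers it turned to 0.04. Slc29a1 (ENSMUSG00000023942, chr17:45585200-45599606, minus strand) was at 22.0, 22.7 and 20.1 CPM in WT sham and at 23.1, 19.7 and 21.1 CPM in WT IR. These groups overlapped (log2 fold change -0.03, SE 0.09, adjusted p = 0.864).

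**Figure D2:**
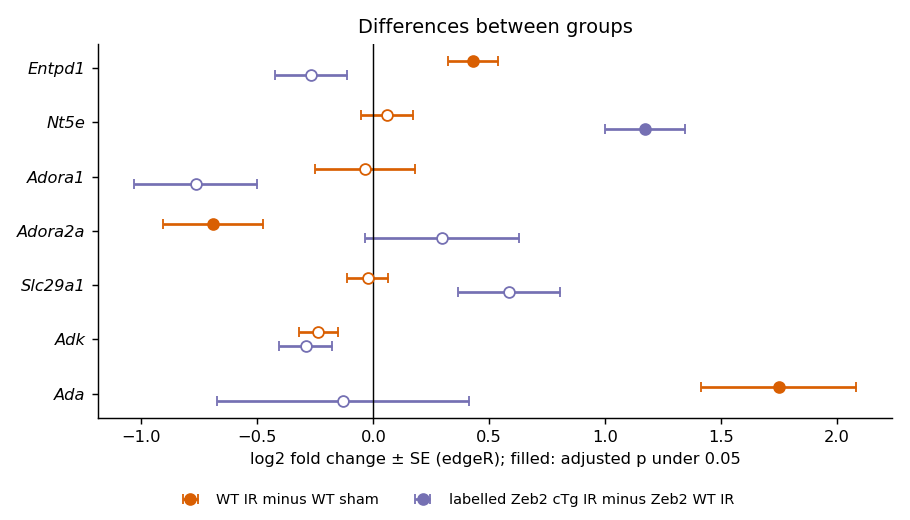
Log2 fold change ± SE (horizontal axis) of the 7 genes with enough counts, for WT IR minus WT sham (orange) and for the libraries labelled Zeb2 cTg IR minus Zeb2 WT IR (purple); filled points had an adjusted p under 0.05. Entpd1, Ada and Adora2a are filled in the WT comparison and Nt5e in the other.

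The wider pathway was read from a list of 48 other genes, of which 47 had a row and 35 enough counts in each comparison. In WT IR, 8 of the 35 rose and 4 fell, against 11.0% and 9.74% of all genes, and the median log2 fold change was 0.14 against 0.01 for all genes. Enzymes that break down nucleotides outside the cell, together with the channel that releases ATP, rose in 4 of 5 cases. Enpp1, an ectoenzyme that makes AMP and pyrophosphate from ATP, was at 4.31, 4.48 and 4.37 CPM in WT sham and at 8.94, 14.7 and 20.4 CPM in WT IR (log2 fold change 1.73, adjusted p = 0.00456). The sham hearts were almost alike and the injured hearts spread widely, in the order that the summed fibroblast and the summed macrophage markers share. Panx1, the pannexin channel through which ATP leaves cells, was at 0.832, 0.583 and 0.640 CPM in WT sham and at 1.66, 1.93 and 3.47 CPM in WT IR (log2 fold change 1.75, adjusted p = 0.00905). Entpd2, which cuts ATP to ADP, rose from 2.36 ± 0.381 to 4.77 ± 1.24 CPM (SD, n = 3, log2 fold change 1.02, adjusted p = 0.0136). Enpp3, a relative of Enpp1, rose from 2.37 ± 0.258 to 4.92 ± 1.02 CPM (log2 fold change 1.03, adjusted p = 0.00718). Alkaline phosphatase Alpl, which can also dephosphorylate AMP, overlapped between the groups (log2 fold change -0.31, adjusted p = 0.121). Enpp1 and Enpp3 passed in every fit with 1 library left out. Panx1 missed in the fit without WT sham replicate 2 (adjusted p = 0.0635), and Entpd2 in the fits without WT sham replicate 2 (0.0835) and without WT IR replicate 2 (0.0623).

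P2 receptors moved in both directions in WT IR, with 3 higher and 2 lower among 10 tested, against 11.0% and 9.74% of all genes. The ATP-gated channels P2rx4 (log2 fold change 0.44, adjusted p = 0.0232) and P2rx7 (0.63, adjusted p = 0.0250) and the ADP receptor P2ry13 (1.01, adjusted p = 0.0460) rose. The ADP receptor P2ry1 went from 10.1, 12.4 and 13.1 CPM to 8.28, 6.88 and 6.86 CPM (log2 fold change -0.69, adjusted p = 0.00797). The ATP and UTP receptor P2ry2 went from 11.0, 10.6 and 9.66 CPM to 8.25, 7.38 and 6.79 CPM (-0.48, adjusted p = 0.0143). For both falling receptors, every injured heart lay below every sham heart. P2rx4 and P2rx7 are abundant on macrophages, whose markers rose in the same libraries. P2rx4, P2rx7 and P2ry13 each passed in 1 of the 6 fits with 1 library left out, the fit without WT IR replicate 1, with adjusted p between 0.0542 and 0.182 in the others. P2ry1 passed in 5 (0.0541 without WT sham replicate 2) and P2ry2 in 3 (0.0587 to 0.0756 without WT sham replicate 1, WT sham replicate 2 or WT IR replicate 2), and with scaling on cardiomyocyte markers neither passed (adjusted p = 0.0641 and 0.249). Of the 12 other alternatives, P2rx4 passed in 10, P2rx7 in 11, P2ry13 in 9, P2ry1 in 11 and P2ry2 in 10.

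Of the 16 tested genes listed under adenosine formation and removal inside the cell, 2 fell and the other 14 did not pass. Among all genes, 9.74% were called lower. Ak1, the adenylate kinase that converts 2 ADP to ATP and AMP in muscle, went from 161, 162 and 153 CPM to 136, 111 and 114 CPM (log2 fold change -0.40, adjusted p = 0.0196). Nt5m, a mitochondrial deoxyribonucleotidase of that list, went from 5.50 ± 0.409 to 3.95 ± 0.179 CPM (SD, n = 3, log2 fold change -0.48, adjusted p = 0.0193). The cytosolic AMP nucleotidase Nt5c1a, which makes adenosine within muscle cells, missed the threshold (8.45 ± 0.847 against 5.38 ± 1.88 CPM, adjusted p = 0.0554), as did the AMP deaminase Ampd3 (19.3 ± 0.223 against 15.6 ± 1.95 CPM, adjusted p = 0.0522). Of the transporters, Slc29a3, an equilibrative transporter of lysosomal membranes, rose from 3.04 ± 0.140 to 4.40 ± 0.876 CPM (log2 fold change 0.54, adjusted p = 0.0476), and Slc29a2 (ENT2) was lower without passing (2.98 ± 0.490 against 2.09 ± 0.246 CPM, adjusted p = 0.0711). Slc29a3 passed only without WT IR replicate 1 among the 6 fits with 1 library left out (adjusted p between 0.103 and 0.174 in the others). Of the 12 other alternatives it passed in 6, with a highest adjusted p of 0.103. Ak1 missed without WT sham replicate 1, WT sham replicate 2 or WT IR replicate 2 (0.0700 to 0.0983) and Nt5m without the last 2 of these (0.0819 to 0.0962), and Ak1 and Nt5m missed with scaling on cardiomyocyte markers (adjusted p = 0.326 and 0.397). Of the 12 other alternatives, which include that scaling, Ak1 passed in 9 and Nt5m in 11. The A3 receptor Adora3 had too few counts, with at most 0.298 CPM in any library.

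The second comparison asks how the hearts labelled Zeb2 cTg IR differed from those of injured littermates. Of the 7 genes tested, Nt5e rose and no other passed, which is 1 of 7 against 3.64% of all 13018 genes tested (2.14% higher and 1.51% lower). The groups did not overlap for 2 of the 7, Nt5e and Adk, as for 26.2% of all genes tested. The median log2 fold change of the 7 was -0.13, against 0.01 for all genes. With scaling on cardiomyocyte markers, 184 genes were higher and 623 lower in this comparison, against 278 and 196 with TMM.

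Nt5e was at 7.70, 9.19 and 9.56 CPM in Zeb2 WT IR and at 15.7, 23.3 and 20.6 CPM in those labelled Zeb2 cTg IR. All of the latter stood well above the highest littermate. The rise was 2.25-fold (log2 fold change 1.17, SE 0.17, adjusted p = 0.0109). It passed in all 6 fits with 1 library left out, with a log2 fold change between 1.04 and 1.31, and in all 12 other alternatives, between 1.01 and 1.22. Fibroblasts can carry CD73, and their markers moved the other way in these libraries, while T cell markers summed to at most 0.666 CPM. Of the 22 cardiomyocyte markers, 2 passed in the same direction as Nt5e, as above, and so did 1 of the 7 tested markers of smooth muscle cells and pericytes. The latter was Acta2, the smooth muscle actin, at 20.2, 13.8 and 16.7 CPM against 57.2, 39.8 and 64.5 CPM (3.18-fold, adjusted p = 0.00463). The summed markers of the smooth muscle and pericyte list overlapped, at 473 to 519 CPM against 407 to 479 CPM. Rgs5 alone was the largest part of each sum, at 380 to 418 CPM against 267 to 340 CPM, so the sums follow this gene more than the rest of the list. Of its 7 tested markers, 4 had a positive and 3 a negative log2 fold change. Rgs5 (-0.37, adjusted p = 0.128) and Kcnj8 (-0.41, adjusted p = 0.130) were lower without overlap but did not pass. The part of these shifts in the rise of Nt5e was not tested. In the same libraries Entpd1, which supplies the AMP, was at 9.26, 12.6 and 11.1 CPM against 11.7, 13.3 and 14.8 CPM in Zeb2 WT IR. These values overlapped, and the log2 fold change of -0.27 (SE 0.16, adjusted p = 0.314) did not pass. Both surface enzymes thus had different patterns across the comparisons, with Entpd1 past the threshold after IR and Nt5e past it in the labelled transgenic hearts. Whether their changes differ was not tested.

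Adora1 was at 3.92, 4.29 and 2.70 CPM in Zeb2 WT IR and at 2.10, 1.53 and 2.72 CPM in the libraries labelled Zeb2 cTg IR. Replicate 3 of each group stood at nearly the same level, so the groups overlapped. The log2 fold change of -0.77 (SE 0.27) had an adjusted p of 0.127. Only with the GC correction, among the 12 other alternatives and 6 fits with 1 library left out, did it pass (-1.02, adjusted p = 0.0393). Adora2a was at 0.954, 1.01 and 1.20 CPM against 1.68, 0.725 and 1.49 CPM. The labelled transgenic hearts lay on both sides of the littermates (log2 fold change 0.30, SE 0.33, adjusted p = 0.608), and the sign turned with the GC correction (-0.23). Adora2b was at 0.257, 0.324 and 0.200 CPM against 0.335, 0.229 and 0.281 CPM, which is 6 to 10 reads per library.

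Slc29a1 was at 15.7, 9.67 and 13.6 CPM in Zeb2 WT IR and at 23.6, 14.4 and 20.6 CPM in the libraries labelled Zeb2 cTg IR. Replicate 2 was the lowest of each group, and that of the labelled transgenic hearts alone brought the groups into overlap. The log2 fold change of 0.59 (SE 0.22, adjusted p = 0.150) did not pass, but it did without Zeb2 cTg IR replicate 2 (0.76, adjusted p = 0.0253), with no filter on low counts (0.60, adjusted p = 0.0392) and when the 12 libraries were fitted together (0.60, adjusted p = 0.0436). Adk was at 67.7, 73.4 and 67.8 CPM against 60.9, 57.8 and 52.2 CPM. Every labelled transgenic heart lay below every littermate, yet the log2 fold change of -0.29 (SE 0.11) had an adjusted p of 0.165. It passed with scaling on cardiomyocyte markers (-0.46, adjusted p = 0.0434) and shrank to -0.04 with the GC correction. Ada, at 0.477, 0.121 and 0.733 CPM against 0.251, 0.496 and 0.477 CPM, overlapped throughout (log2 fold change -0.13, SE 0.54, adjusted p = 0.904).

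**Figure D3:**
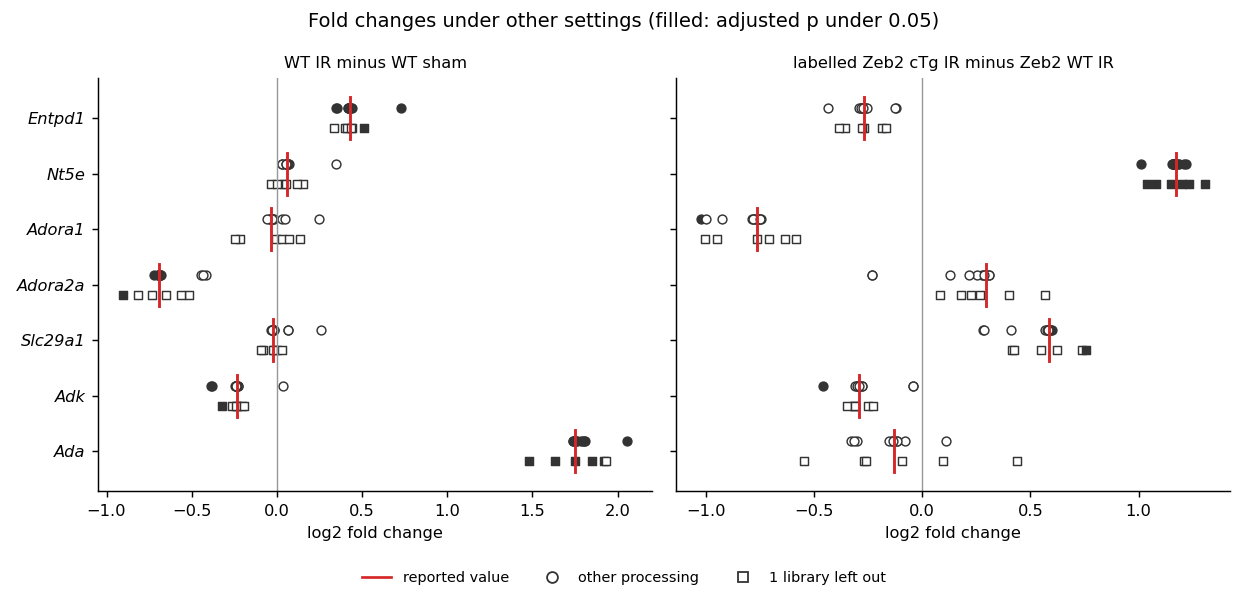
Log2 fold changes (horizontal axes) of the 7 genes under the reported settings (red lines), under 12 other ways of processing (circles, 11 for Ada) and with 1 of 6 libraries left out (squares), filled where the adjusted p was under 0.05. All Nt5e points in the right panel are filled and lie between 1.01 and 1.31, whereas Entpd1 and Adora2a in the left panel have 1 filled square of 6.

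Among the 35 other pathway genes tested in this comparison, 1 passed the test, in the higher direction. Over all genes tested, 2.14% were called higher and 1.51% lower. The median log2 fold change of the 35 was 0.01, as for all genes. Aprt, which salvages adenine to AMP, was at 1.17, 0.890 and 1.43 CPM in Zeb2 WT IR and at 2.77, 2.14 and 2.86 CPM in the libraries labelled Zeb2 cTg IR (log2 fold change 1.14, adjusted p = 0.0408). The groups did not overlap. Aprt passed in 9 of the 12 other alternatives, with a highest adjusted p of 0.123. The losses included the GC correction (log2 fold change 0.68, adjusted p = 0.0941) and scaling on cardiomyocyte markers (0.97, adjusted p = 0.0595). It passed in 1 of the 6 fits with 1 library left out, the fit without Zeb2 cTg IR replicate 2 (adjusted p = 0.0128). The groups did not overlap for 13 of the 35, Aprt included, against 26.2% of all genes tested. The 3 that missed the threshold by least were the following. Slc29a2 (ENT2), the other equilibrative transporter of the cell surface, was at 1.80, 1.497 and 1.23 CPM against 4.07, 2.14 and 3.68 CPM (log2 fold change 1.13, adjusted p = 0.0583). The ATP-gated channel P2rx5 was at 4.03, 3.36 and 3.03 CPM against 5.62, 5.34 and 6.46 CPM (0.74, adjusted p = 0.0525). Ak1 was at 129, 91.8 and 108 CPM against 203, 131 and 175 CPM (0.63, adjusted p = 0.0859), whereas in WT hearts it fell after IR. DESeq2 called these 3 genes and Aprt, 4 in all, and without Zeb2 cTg IR replicate 2 the edgeR count was 6. The 4 genes of extracellular breakdown and ATP release that rose after IR in WT hearts did not pass here. Enpp1 overlapped between the groups (7.26, 4.78 and 12.8 CPM against 4.02, 5.88 and 4.38 CPM, log2 fold change -0.80, adjusted p = 0.173), as did Entpd2 (-0.01, adjusted p = 0.993) and Panx1 (-0.35, adjusted p = 0.678). Enpp3 did not overlap (2.20, 2.31 and 3.07 CPM against 1.59, 1.53 and 1.88 CPM, -0.59, adjusted p = 0.151). The fibroblast sums were lower in the same libraries.

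**Figure D4:**
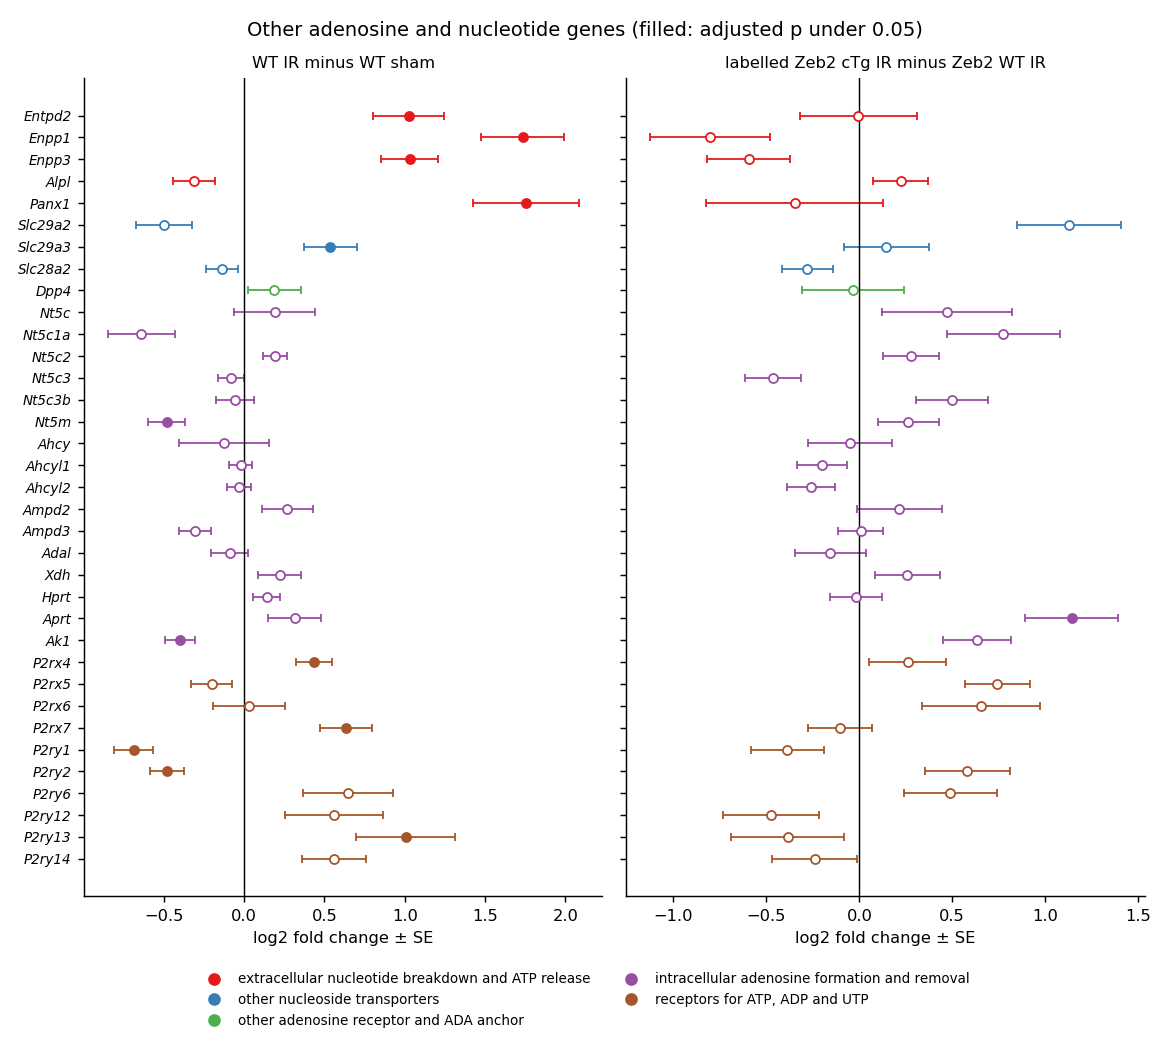
Log2 fold change ± SE (horizontal axes) of the 35 other adenosine and nucleotide genes with enough counts, coloured by role, for WT IR minus WT sham (left) and for the libraries labelled Zeb2 cTg IR minus Zeb2 WT IR (right); filled points had an adjusted p under 0.05. On the left, 4 of the 5 genes of extracellular breakdown and ATP release are filled and higher; on the right, Aprt is the filled point.

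GC content of the longest transcript moved with both comparisons and is given beside the genes it touches. Over 13609 genes of the WT comparison, Spearman's rho between GC content and log2 fold change was -0.292, and over 12892 genes of the Zeb2 comparison it was 0.552, as descriptions across genes that share libraries. In the Zeb2 comparison, genes with a GC content below 44.6% had a median log2 fold change of -0.20 and genes above 54.1% a median of 0.38. Adk, at 37.5% GC, belonged to the first of these classes. Slc29a1 (55.3%), Adora1 (54.2%) and Adora2a (59.2%) belonged to the second, and Entpd1 (44.7%), Nt5e (48.0%), Adora2b (50.4%) and Ada (53.8%) lay between them. With the correction, the log2 fold change of Slc29a1 in the Zeb2 comparison was 0.28 (adjusted p = 0.217) against 0.59 without it, and that of Nt5e was 1.22 (adjusted p = 0.00294) against 1.17.

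The genes most like each of the 6 genes with a mean of at least 1 CPM in both tables were found by Pearson's r over the 12 libraries, with log2 CPM centred on the mean of their table, among 11951 genes. Points share libraries, depth and the difference between groups, so r is a description. Nt5e was most like Abcb4 (r = 0.95) and Serf2 (0.95), although within the WT table alone r with Serf2 was 0.29. Entpd1 was most like Lrig3 (0.98) and Mob1a (0.97), and Adk was most like Pank1 (0.97) and Pm20d2 (0.97). Slc29a1 was most like Fis1 (0.99) and Ncaph2 (0.98). Among the receptors, Adora2a was most like Akap1 (0.94) and Bnip1 (0.93), and Adora1 had the weakest matches, with Map7 (0.88) and Coq2 (0.85).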

How the data were processed

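The authors aligned reads with STAR 2.4.2a to mm10, counted them per gene with HTSeq 0.6.1 against GENCODE M4 and deposited 2 tables of whole-number counts without normalization, each with 6 libraries. The methods state stranded, single-end libraries, and the strand setting of the counting is not given in the sources used here. The methods name a total RNA kit and the labels an mRNA kit. Symbols, positions, exon lengths and GC content come from GENCODE M21 (GRCm38), which matched 36345 of 38293 identifiers.

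Libraries were grouped by their labels. Each table was fitted on its own in R 4.3.3 with edgeR 4.0.16, using TMM, filterByExpr (minimum count 10, minimum total 15) and the quasi-likelihood test, whose p-values were adjusted by Benjamini-Hochberg over every tested gene. limma 3.58.1 and DESeq2 1.42.0 served as alternatives, and the test was tried on simulated data. Levels between genes are CPM per kb of merged exons. No 2 libraries held identical counts.

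The 8 genes and all lists were chosen with earlier results of these data known. The text names the 8 genes, Zeb2, other genes of the pathway that passed or are named for their role, and the 2 genes most like each of the 8 with a mean of at least 1 CPM. Pnp, a listed gene, was not analysed here. The alternatives were other scalings (RLE, upper quartile, 22 cardiomyocyte markers), no mitochondrial genes, other filters, a replicate block, a GC correction (loess, span 0.5), both together, all 12 libraries in 1 fit, other tools, and each library left out in turn. Scaling on the 22 cardiomyocyte markers used their summed counts, of which Ttn was the largest part.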

Additional observations from a re-analysis of the deposited data

How the results depend on the processing

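With scaling on cardiomyocyte markers the median of all genes moved to 0.29 on the log2 scale in the WT comparison and to -0.16 in the Zeb2 comparison, so fold changes under it stand relative to those values. In the WT comparison (2859 genes called, 3 of the adenosine genes, 12 of the other pathway genes), the fit of all 12 libraries gave 1424, 1 and 7. Leaving out 1 library gave 421 to 4980 genes, 0 to 4 adenosine genes and 2 to 17 others, lowest without WT sham replicate 2 and highest without WT IR replicate 1. The other settings stayed within 1.5 times of the reported counts of this comparison. In the Zeb2 comparison (474, 1 and 1), the counts were 807, 2 and 1 with cardiomyocyte markers, 1553, 2 and 6 with no filter, 800, 2 and 0 with the GC correction, 734, 1 and 1 with the GC correction and the replicate block, 1932, 2 and 6 with all 12 libraries in 1 fit and 1096, 1 and 4 with DESeq2, and stayed within 1.5 times with RLE, upper quartile, no mitochondrial genes, the minimum of 10 counts and limma-voom. Leaving out 1 library gave 98 to 2419 genes, 1 to 2 adenosine genes and 0 to 6 others, lowest without Zeb2 WT IR replicate 3 and highest without Zeb2 cTg IR replicate 2. The cause of these differences was not tested. Ada could not be tested with a minimum of 10 counts in every library.

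The replicate numbers are shared between groups but name different mice. The deviations of same-numbered libraries correlated at -0.03, 0.01 and -0.01 in the WT table and at 0.13, 0.26 and -0.04 in the Zeb2 table, so the numbers were not taken as pairs. The replicate block gave 2595 genes in the WT comparison and, in the Zeb2 comparison, 1813 genes, 2 adenosine genes (Nt5e and Slc29a1, the latter with an adjusted p of 0.0128) and 6 others. With 3 hearts a group, genes of a few reads such as Adora2b and Ada have the least precise values.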

Other observations

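Both tables hold non-transgenic hearts 14 days after IR, WT IR in the first and Zeb2 WT IR in the second, and their levels were set side by side without a test because the tables were normalized separately. Adora2a was at 2.02 ± 0.504 CPM in WT IR and at 1.05 ± 0.128 CPM in Zeb2 WT IR (SD, n = 3). Slc29a1 was at 21.3 ± 1.70 and 12.99 ± 3.05 CPM. Adk was at 49.6 ± 4.77 and 69.7 ± 3.25 CPM, and Ada at 1.06 ± 0.155 and 0.444 ± 0.307 CPM. Nt5e was at 10.3 ± 0.767 and 8.82 ± 0.984 CPM, Adora1 at 4.46 ± 1.03 and 3.64 ± 0.833 CPM, and Entpd1 at 12.9 ± 1.67 and 13.3 ± 1.55 CPM.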
